A study of Homo sapiens with 6 samples.

Results

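IL11 and its relatives of the gp130 cytokine family were followed in H2122, a line grown from a human lung adenocarcinoma, after knockdown of LYCAT. The family was represented by 10 genes, matched by symbol among the 23368 genes of the deposited table. They were 4 ligands (IL11, IL6, LIF and CLCF1), 4 receptor chains (IL6ST, IL6R, LIFR and OSMR), the transcription factor gene STAT3 and its feedback inhibitor SOCS3. They were chosen by family membership with the CPM difference of IL11 between the groups in view, so levels and calls of these 10 genes are descriptions and carry no test.

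The groups were 3 libraries of cells transfected with an shRNA against LYCAT, the older name of the acyltransferase gene LCLAT1, and 3 libraries with a control shRNA, both collected after 48 hours. The series title speaks of a knockout, whereas the sample labels describe shRNA. Neither the sequence nor the number of hairpins is labelled, so other effects of the hairpin cannot be told apart from those of losing LCLAT1. Separate cultures are not labelled either: a p-value here reflects the variation among the libraries at hand, possibly technical only. In bulk RNA, fewer cells of a type and less RNA per cell cannot be told apart. Levels are CPM, counts per 1000000 of the scaled library size. A gene is called when edgeR's quasi-likelihood test over all 11097 genes abundant enough to test gave an adjusted p under 0.05.

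The gp130 family is named after the receptor chain encoded by IL6ST, which all of these ligands use to signal. IL-6 and IL-11 first bind a chain of their own and then a pair of gp130 chains, whereas LIF and oncostatin M bring gp130 together with the chains encoded by LIFR or OSMR. The assembled receptor activates JAK kinases, which phosphorylate STAT3, and STAT3 induces SOCS3, a protein that blocks the receptor in turn. Tumour cells and fibroblasts are known sources of IL-11 and IL-6, and AP-1 is a known inducer of the IL11 gene.

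Start-site regions of the members were taken from RefSeq (GRCh38.p14), from 250 bases before to 50 after each annotated start, and 8 of the 10 genes matched, with 11 windows. The regions shown are those of IL11 and IL6R, which were called higher with LYCAT shRNA, of OSMR, which was not called, and of the weakly expressed IL6. Capitals mark AP-1 matches (TGANTCA) in the first 3, C/EBP matches (TTGCNNAA) in OSMR and IL6, and the NF-kB match in IL6, each searched on both strands with no overlap between them. IL11 lies at chr19:55370414-55370713 on the minus strand, IL6R at chr1:154405093-154405392, OSMR at chr5:38845762-38846061 and IL6 at chr7:22726950-22727249, all 3 on the plus strand.
IL11: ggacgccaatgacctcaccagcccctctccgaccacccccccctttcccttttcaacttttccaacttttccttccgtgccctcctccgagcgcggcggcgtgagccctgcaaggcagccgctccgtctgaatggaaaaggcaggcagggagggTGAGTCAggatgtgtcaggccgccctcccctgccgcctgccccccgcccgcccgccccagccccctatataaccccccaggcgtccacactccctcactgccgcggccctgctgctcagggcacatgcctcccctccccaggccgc
IL6R: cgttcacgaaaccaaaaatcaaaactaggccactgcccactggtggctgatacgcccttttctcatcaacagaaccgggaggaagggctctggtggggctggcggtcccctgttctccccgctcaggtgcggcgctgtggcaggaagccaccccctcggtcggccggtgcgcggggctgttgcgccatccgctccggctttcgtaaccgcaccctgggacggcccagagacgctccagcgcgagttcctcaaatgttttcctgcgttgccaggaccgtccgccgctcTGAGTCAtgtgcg
OSMR: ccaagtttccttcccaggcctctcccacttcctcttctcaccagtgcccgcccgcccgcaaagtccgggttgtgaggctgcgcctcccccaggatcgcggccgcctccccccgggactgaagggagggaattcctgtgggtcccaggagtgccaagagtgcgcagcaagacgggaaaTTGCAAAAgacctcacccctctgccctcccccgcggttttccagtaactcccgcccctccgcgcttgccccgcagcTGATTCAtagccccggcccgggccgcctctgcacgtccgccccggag
IL6: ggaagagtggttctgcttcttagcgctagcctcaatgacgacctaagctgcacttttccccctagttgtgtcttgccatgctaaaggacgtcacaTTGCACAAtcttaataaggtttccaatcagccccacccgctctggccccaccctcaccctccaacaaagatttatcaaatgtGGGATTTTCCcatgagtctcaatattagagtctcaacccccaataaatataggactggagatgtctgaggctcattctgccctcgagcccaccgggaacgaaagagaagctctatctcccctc

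The AP-1 match began at position -96 from the annotated start of IL11, at position 38 of the transcribed part of IL6R and at position 4 of OSMR. An AP-1 match was present in 3 of the 11 member windows and in 7.71% of the 35116 windows of all genes. C/EBP matches were found in 3 member windows and in 10.5% of all windows, NF-kB matches in 1 and in 0.558%, and STAT matches (TTCNNNGAA) in 2, both of LIFR, and in 7.66%. A match describes letters in these windows and is not a measured binding site.

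Library totals ranged from 3118946 to 4730453 counts with LYCAT shRNA and from 4075367 to 4930079 with control shRNA, and 3 counts correspond to 0.608 to 0.967 CPM. The target LCLAT1 stood at 18.9, 22.6 and 23.6 CPM with LYCAT shRNA, against 56.8, 61.2 and 65.3 CPM with control shRNA. That left 35.5% of the control mean (log2 fold change -1.50, SE 0.114, edgeR adjusted p = 1.15e-18). For LCLAT1 alone, an exact permutation test (two-sided) gave p = 0.1, the smallest value possible with 3 libraries a group. Chi-square per degree of freedom was 4.93 to 6.72 for library pairs from different groups and 1.36 to 2.49 for pairs within a group.

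Epithelial markers were abundant: EPCAM averaged 624 ± 8.25 CPM with LYCAT shRNA and 644 ± 16.8 CPM with control shRNA (SD, n = 3 each). Of 6 tested epithelial markers, 4 fell with LYCAT shRNA, namely the keratins KRT7, KRT8 and KRT18 and the adhesion gene CDH1 (log2 fold change -0.30, -0.43, -0.23 and -0.26). Over all tested genes 9.26% were called lower. Without control libraries 1 and 2, 1 of the 4 was called (KRT7), and KRT8 and KRT18 had log2 fold changes of -0.32 and -0.10 (edgeR adjusted p = 0.0845 and 0.365). CDH1 was called in 7 of 14 alternatives, and was lost without any single library other than control replicate 2. Of 22 markers of stroma, endothelium and blood, 17 were too low to test, and the blood and endothelial genes PTPRC, LYZ, CD3E, MS4A1, PECAM1 and CDH5 were at 0 in all 6 libraries, as was FAP of activated fibroblasts. The summed level of these 22 genes was 52.7, 31.0 and 45.1 CPM with LYCAT shRNA, against 104, 148 and 41.6 CPM in control libraries 1 to 3. Control libraries 1 and 2 were thus high in collagen genes, with levels of 59.4 and 82.7 CPM for COL1A1, against 28.3 CPM in control library 3. With LYCAT shRNA COL1A1 was at 25.9, 16.4 and 22.9 CPM, below all 3 control libraries. For COL1A2 the levels in control libraries 1 and 2 were 14.4 and 23.9 CPM, against 0.985 CPM in control library 3. With LYCAT shRNA COL1A2 was at 5.53, 1.61 and 4.44 CPM, so its groups overlapped. Of the 5 markers tested, 0 were called by edgeR, 1 by DESeq2 and 2 by limma-voom, all lower, and 1 passed edgeR's unadjusted p of 0.05. Without control replicate 3, edgeR called 3 of these markers lower, and with no filter on low counts it called 2. Fibroblasts express several gp130 family genes, so results are given below also without those 2 control libraries, in a fit that assumes that the lone control library varies like the others.

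The low-count filter kept 9 of the 10 family genes, and IL11 and IL6R, 2 of the 9, were called higher with LYCAT shRNA, where 9.81% of all tested genes were called higher. None was called lower by edgeR, DESeq2 or limma-voom, where edgeR called 9.26% of all tested genes lower, and 1 member, SOCS3, was lower at an unadjusted p under 0.05. In either direction 19.1% of all tested genes were called. Values of IL11, IL6R and SOCS3, 3 of the 9 tested members, showed no overlap between groups, which was so for 32.8% of all tested genes. Members were selected on this same contrast, so nothing is read from these shares.

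**Figure D1:**
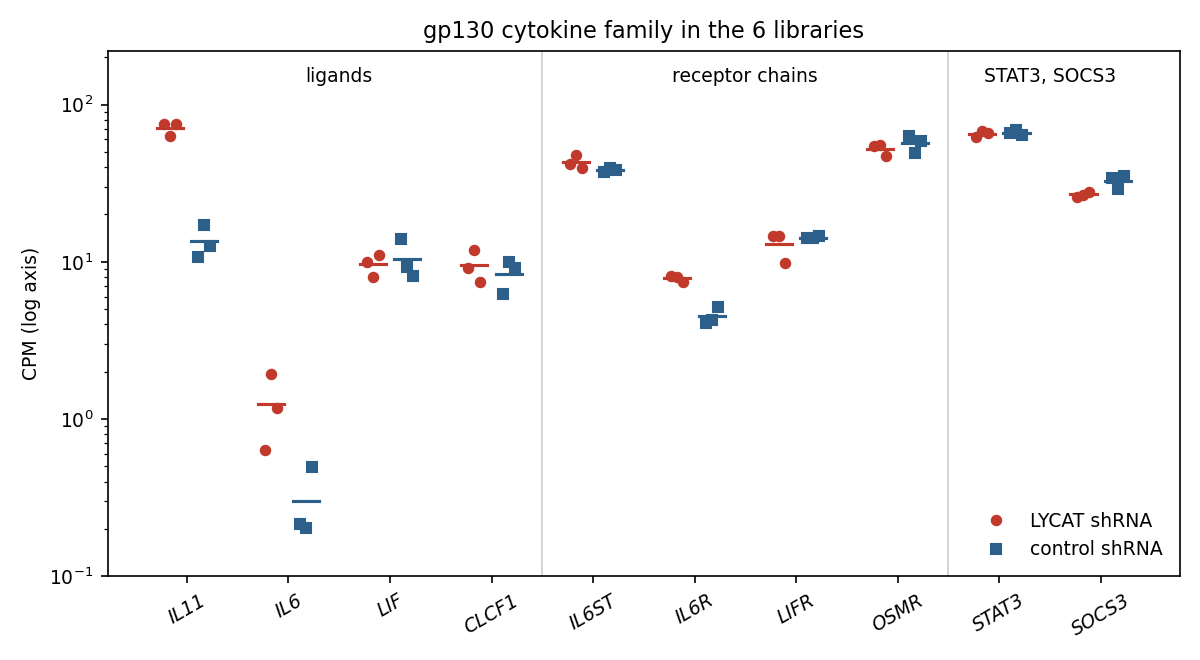
Level of each of the 10 family genes in the 6 libraries, in CPM on a log axis, with LYCAT shRNA as circles left of control shRNA as squares and a line at each group's mean. IL11 sits between 63.2 and 75.4 CPM with LYCAT shRNA, above all 3 control libraries (10.7 to 17.2 CPM), whereas the points of LIF, CLCF1, IL6ST, LIFR, OSMR and STAT3 overlap between groups.

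Among the ligands, IL11 stood out. IL-11 acts on fibroblasts, epithelium and megakaryocyte precursors. Its transcript was at 74.9, 63.2 and 75.4 CPM with LYCAT shRNA, against 10.7, 17.2 and 12.6 CPM with control shRNA. Every LYCAT shRNA library was above every control library, and control library 2 was the highest of the controls. The means were 71.2 ± 6.89 CPM with LYCAT shRNA and 13.5 ± 3.36 CPM with control shRNA (SD, n = 3 each), a fold change of 5.26 (log2 2.40, SE 0.125). The log2 fold change was 2.63 without control replicate 2 and 2.51 without control libraries 1 and 2. The counts behind these levels were 352, 196 and 323 with LYCAT shRNA and 50, 85 and 51 with control shRNA.

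IL6, the founding ligand of the family and an acute phase inducer, was barely expressed. It had 3, 6 and 5 counts with LYCAT shRNA, against 1, 1 and 2 counts with control shRNA, and did not reach the level needed for testing. Summed over libraries, this was 14 counts or 1.16 CPM (95% exact Poisson interval 0.633 to 1.94) with LYCAT shRNA, against 4 counts or 0.293 CPM (0.0798 to 0.75) with control shRNA. The ratio of the sums was 3.96, with an interval of 1.24 to 16.5 that covers counting error only. In a fit with no filter on low counts, which took in 16183 genes, IL6 was not called.

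LIF, a cytokine known for keeping stem cells undifferentiated, was at 9.99, 8.06 and 11.0 CPM with LYCAT shRNA, against 13.9, 9.32 and 8.13 CPM with control shRNA. The groups overlapped, with the highest value in control library 1 (log2 fold change -0.10, SE 0.211). CLCF1, a ligand that signals through the receptor for ciliary neurotrophic factor, was at 9.14, 11.9 and 7.47 CPM with LYCAT shRNA, against 6.22, 9.93 and 9.11 CPM with control shRNA. These values overlapped as well (log2 fold change 0.15, SE 0.225). For LIF and CLCF1 the sign of the log2 fold change turned with the library left out, from -0.23 to 0.16 for LIF and from -0.03 to 0.30 for CLCF1. Without control libraries 1 and 2 it was 0.27 for LIF and 0.03 for CLCF1.

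Levels of different genes were compared per kb of exon (GENCODE v29 lengths, which may differ from the transcripts counted). IL11 averaged 30 CPM per kb with LYCAT shRNA and 5.69 CPM per kb with control shRNA. That placed it above 79.1% of tested genes with a length in LYCAT shRNA cells and above 40.2% in control shRNA cells. LIF was at 2.44 CPM per kb with LYCAT shRNA and 2.65 CPM per kb with control shRNA, and CLCF1 at 4.82 CPM per kb with LYCAT shRNA and 4.26 CPM per kb with control shRNA. Of the per-kb level summed over the 4 ligands, IL11 made up 80.8%, 74.4% and 81.5% in the LYCAT shRNA libraries, against 40.0%, 49.2% and 43.3% in the control shRNA libraries. The sum itself was 39.1, 35.9 and 39.0 CPM per kb with LYCAT shRNA, against 11.3, 14.7 and 12.3 CPM per kb with control shRNA.

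**Figure D2:**
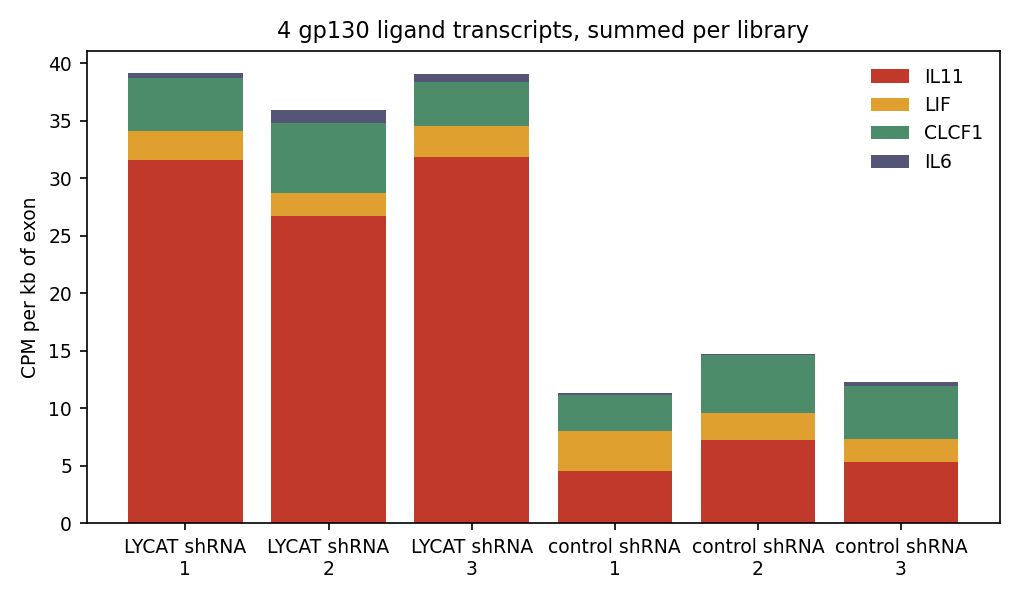
Summed level of the 4 ligand transcripts in each library, as stacked bars in CPM per kb of exon, with the LYCAT shRNA libraries left of the control shRNA libraries. The IL11 segment is 26.7 to 31.8 CPM per kb with LYCAT shRNA and 4.51 to 7.25 CPM per kb with control shRNA, while the LIF and CLCF1 segments keep similar heights.

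The ratio of IL11 to LIF within a library, in CPM, does not depend on the scaling between libraries. It was 7.5, 7.84 and 6.85 with LYCAT shRNA, against 0.770, 1.85 and 1.55 with control shRNA. These ratios did not overlap between the groups, and the lowest control ratio was in library 1, where LIF was highest.

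Several other ligand genes, listed beside the members, were at or near 0. CNTF, CTF1, IL27 and IL31 had 0 counts in all 6 libraries, OSM, which encodes oncostatin M, had 1 count in control library 3 and none elsewhere, and EBI3, a subunit of IL-27, had at most 2 counts in any library.

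Among receptor chains, IL6R was the gene that was called. It encodes the chain that binds IL-6, and was at 8.08, 8.06 and 7.47 CPM with LYCAT shRNA, against 4.07, 4.26 and 5.17 CPM with control shRNA. The groups did not overlap, and the means were 7.87 ± 0.346 CPM with LYCAT shRNA and 4.5 ± 0.589 CPM with control shRNA (SD, n = 3 each). The fold change was 1.75 (log2 0.81, SE 0.262), from 25 to 38 counts per LYCAT shRNA library and 19 to 21 per control shRNA library. The IL6R call was lost with DESeq2, without LYCAT shRNA replicate 1 or 2, without control replicate 1 or 2, and without both of those control libraries (log2 0.60). The log2 fold change lay between 0.60 and 0.92 in the 14 alternatives. As the groups did not overlap, leaving out libraries could hardly turn its sign.

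IL6ST, the shared gp130 chain, was at 42.1, 48.1 and 39.5 CPM with LYCAT shRNA, against 37.1, 39.7 and 38.4 CPM with control shRNA. The lowest LYCAT shRNA value lay just below the highest control value (log2 fold change 0.16, SE 0.107). OSMR, the oncostatin M chain, was at 54.4, 55.5 and 46.9 CPM with LYCAT shRNA, against 63.0, 49.5 and 59.1 CPM with control shRNA. LIFR, the chain for LIF, was at 14.5, 14.5 and 9.81 CPM with LYCAT shRNA, against 14.1, 14.2 and 14.5 CPM with control shRNA. Only LYCAT shRNA library 3 was apart for LIFR, and the groups of both genes overlapped (log2 fold change -0.13, SE 0.0986, for OSMR and -0.15, SE 0.181, for LIFR).

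By level per kb, OSMR was the highest of the 4 receptor members, at 8.51 CPM per kb with LYCAT shRNA and 9.31 CPM per kb with control shRNA. IL6ST followed at 4.76 CPM per kb with LYCAT shRNA and 4.23 CPM per kb with control shRNA. LIFR was at 1.24 CPM per kb with LYCAT shRNA and 1.37 CPM per kb with control shRNA, and IL6R at 1.31 CPM per kb with LYCAT shRNA and 0.747 CPM per kb with control shRNA. IL6R lay below LIFR in every control library and within the range of LIFR in LYCAT shRNA libraries. The OSMR to IL6ST ratio in CPM was 1.29, 1.15 and 1.19 with LYCAT shRNA, against 1.70, 1.25 and 1.54 with control shRNA, with overlap.

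The receptor chain specific to IL-11, encoded by IL11RA and no member of the 10, had 12, 14 and 12 counts with LYCAT shRNA, against 17, 20 and 17 counts with control shRNA. It averaged 3.29 ± 1.07 CPM with LYCAT shRNA and 3.96 ± 0.283 CPM with control shRNA (SD, n = 3 each), and was not called (log2 fold change -0.32, SE 0.34, edgeR adjusted p = 0.575). IL27RA, the chain for IL-27, was at 28.5 ± 2.34 CPM with LYCAT shRNA and 29.6 ± 0.892 CPM with control shRNA and was not called. CNTFR and IL31RA had 0 counts in every library.

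STAT3, the transcription factor activated by gp130, was at 62.3, 67.7 and 65.6 CPM with LYCAT shRNA, against 66.2, 68.5 and 63.8 CPM with control shRNA. The groups overlapped over nearly their whole ranges (log2 fold change -0.03, SE 0.0874). SOCS3, which binds gp130 and stops its signal, was at 25.7, 26.8 and 28.0 CPM with LYCAT shRNA, against 34.3, 29 and 35.2 CPM with control shRNA. All 3 LYCAT shRNA libraries lay below all 3 control libraries, and the nearest control was library 2. The means were 26.8 ± 1.15 CPM with LYCAT shRNA and 32.8 ± 3.36 CPM with control shRNA (SD, n = 3 each), a log2 fold change of -0.29 (SE 0.123). SOCS3 was not called with all 6 libraries, and of 14 alternatives only 1 called it lower, that without control replicate 2 (log2 -0.37). Without control libraries 1 and 2 its log2 fold change was -0.39.

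The SOCS3 to STAT3 ratio within a library, in CPM, was 0.413, 0.396 and 0.427 with LYCAT shRNA, against 0.518, 0.423 and 0.552 with control shRNA. LYCAT shRNA library 3 lay just above control library 2, so the ratios overlapped.

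**Figure D3:**
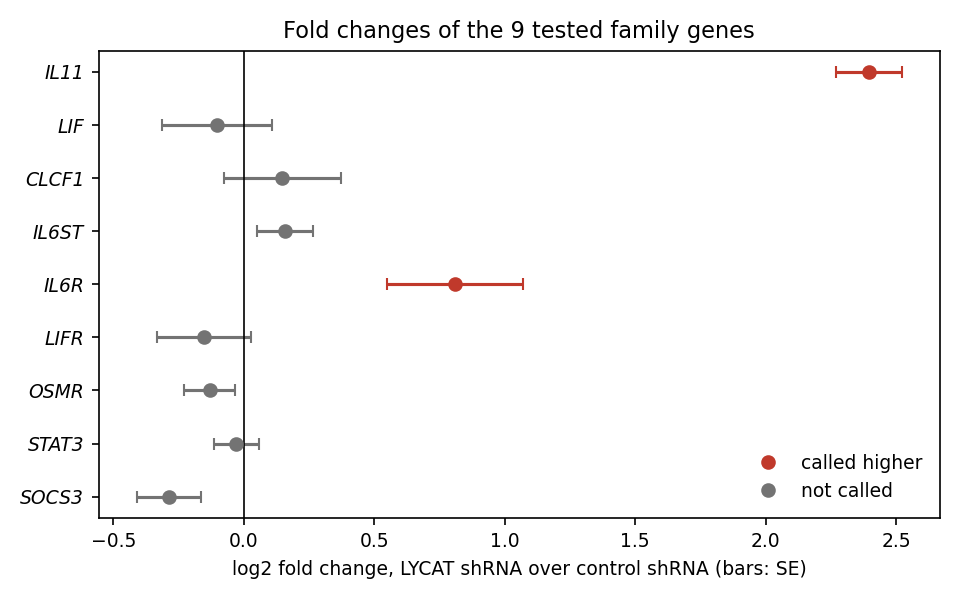
Log2 fold change of LYCAT shRNA over control shRNA for the 9 tested family genes, with bars for the SE. IL11 at 2.40 and IL6R at 0.81 are called higher (red), and the other 7 genes lie between -0.29 and 0.16 and are not called (grey).

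The wider pathway was described with lists of receptor chains, JAK kinases and other STATs, adaptors of the ERK branch and inhibitors. Of the 27 genes in these lists 23 were tested, and edgeR, DESeq2 and limma-voom each called 0 of them, where edgeR called 19.1% of all tested genes. At an unadjusted p under 0.05, 1 was lower and 0 were higher. JAK1, the main kinase on gp130, averaged 42.3 ± 2.43 CPM with LYCAT shRNA and 43.5 ± 4.87 CPM with control shRNA (SD, n = 3 each). The gene that passed before adjustment was PTPN6, a phosphatase that acts on cytokine receptors, named after its value was seen. It stood at 7.66, 6.45 and 5.84 CPM with LYCAT shRNA, against 9.65, 11.1 and 8.87 CPM with control shRNA (log2 fold change -0.57, SE 0.228, edgeR adjusted p = 0.0689).

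No tested adaptor or inhibitor was called. SHC1 averaged 240 ± 9.13 CPM with LYCAT shRNA and 232 ± 9.29 CPM with control shRNA, and PTPN11, the phosphatase SHP2 that links gp130 to ERK, averaged 132 ± 7.71 CPM with LYCAT shRNA and 141 ± 5.44 CPM with control shRNA (SD, n = 3 each). Among inhibitors the 2 most abundant were PTPN1, at 63.0 ± 1.65 CPM with LYCAT shRNA and 62.3 ± 1.58 CPM with control shRNA, and PTPN2, at 45.8 ± 4.49 CPM with LYCAT shRNA and 45.4 ± 1.28 CPM with control shRNA. Both are phosphatases that act on JAK kinases. SOCS1, named after its values were seen, had 2, 3 and 1 counts with LYCAT shRNA, against 10, 5 and 1 counts with control shRNA, and was too low to test. The median log2 fold change was -0.04 for the adaptors, 0.04 for the inhibitors and -0.01 for all tested genes.

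Of 5 genes that control shedding of membrane receptors and ligands, including IL6R, 1 rose and 2 fell, and the median log2 fold change was -0.05. For all tested genes these shares were 9.81% higher and 9.26% lower, and the median was -0.01. RHBDF2, a cofactor of the sheddase ADAM17, was at 31.5, 34.5 and 29.4 CPM with LYCAT shRNA, against 23.4, 22.5 and 24.4 CPM with control shRNA (log2 0.44, SE 0.127, edgeR adjusted p = 0.00871). Its paralog RHBDF1 was at 3.83, 2.90 and 3.04 CPM with LYCAT shRNA, against 8.79, 4.66 and 7.14 CPM with control shRNA (log2 -1.04, SE 0.302, edgeR adjusted p = 0.00835). Neither group pair overlapped, but RHBDF2 was not called without LYCAT shRNA replicate 2 (edgeR adjusted p = 0.0521), and RHBDF1 not without LYCAT shRNA replicate 3 or control replicate 1 (0.0515 and 0.107). With DESeq2 the adjusted p was 0.0629 for RHBDF2 and 0.0701 for RHBDF1, and without control libraries 1 and 2 neither was called by edgeR (adjusted p = 0.193 and 0.0787).

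TIMP3, which inhibits ADAM17 and is also made by fibroblasts, was at 2.13, 0.967 and 0.701 CPM with LYCAT shRNA, against 6.86, 10.1 and 2.71 CPM with control shRNA (log2 -2.33, SE 0.431, edgeR adjusted p = 0.000101). The log2 fold change of TIMP3 was -3.001 without LYCAT shRNA replicate 1. Its 2 highest values were in the control libraries with the higher collagen levels. Without those libraries the log2 fold change of TIMP3 was -1.02 and it was not called (edgeR adjusted p = 0.419). ADAM17 itself averaged 42.2 ± 3.13 CPM with LYCAT shRNA and 44.0 ± 2.86 CPM with control shRNA (SD, n = 3 each) and was not called.

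Genes that STAT3 is known to induce changed in both directions. Of 30 listed genes 22 were tested, of which 6 rose, 5 fell and 11 were not called, with a median log2 fold change of 0.11 against -0.01 for all tested genes. Calls over all tested genes came to 9.81% higher and 9.26% lower. DESeq2 called 4 higher and 4 lower, and without control libraries 1 and 2 edgeR called 5 higher and 2 lower. SERPINA1, which encodes the protease inhibitor alpha-1 antitrypsin, rose most, to 16.6, 20.6 and 22.0 CPM with LYCAT shRNA, against 5.57, 4.66 and 5.66 CPM with control shRNA (log2 1.89, SE 0.203, edgeR adjusted p = 4.57e-12). TIMP1, a metalloprotease inhibitor, rose to 249 ± 5.19 CPM with LYCAT shRNA, against 170 ± 3.56 CPM with control shRNA (log2 0.54, edgeR adjusted p = 4.28e-12). IER3 and MCL1, an inhibitor of apoptosis, rose with log2 fold changes of 0.34 and 0.31 (edgeR adjusted p = 3.78e-08 and 1.13e-06).

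HIF1A and CCND1, which encodes cyclin D1, were called higher with log2 fold changes of 0.19 and 0.18 (edgeR adjusted p = 0.0189 and 0.0488). HIF1A was not called without LYCAT shRNA replicate 1 or control replicate 3 (edgeR adjusted p = 0.126 and 0.0676), nor with DESeq2 (adjusted p = 0.0614). CCND1 was called in 4 of 14 alternatives, and was not called without LYCAT shRNA replicate 2 or 3 or control replicate 1 or 2 (edgeR adjusted p = 0.0513 to 0.306).

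The 5 STAT3 targets that fell were PIM1, JUNB, VEGFA, TNFRSF1A and CEBPB. PIM1, a kinase gene that is a standard readout of STAT signalling, was at 18.7, 16.4 and 14.9 CPM with LYCAT shRNA, against 34.9, 28.4 and 25.4 CPM with control shRNA. No LYCAT shRNA library reached the lowest control (log2 -0.82, SE 0.144, edgeR adjusted p = 7.38e-06), and without control libraries 1 and 2 the log2 fold change was -0.59 (edgeR adjusted p = 0.0545). JUNB, an AP-1 subunit, fell to 95.8 ± 6.21 CPM with LYCAT shRNA, against 136 ± 20.5 CPM with control shRNA (log2 -0.50, edgeR adjusted p = 1.46e-05). CEBPB, a transcription factor of the acute phase response, fell to 336 ± 15.1 CPM with LYCAT shRNA, against 394 ± 31.3 CPM with control shRNA (log2 -0.23, edgeR adjusted p = 0.000744). Without control libraries 1 and 2 the log2 fold change was -0.64 for JUNB and -0.35 for CEBPB. VEGFA, an angiogenic factor, and TNFRSF1A, a TNF receptor, had log2 fold changes of -0.32 and -0.31 (edgeR adjusted p = 0.00456 and 0.0173). VEGFA was not called without LYCAT shRNA replicate 1 or control replicate 1 (edgeR adjusted p = 0.0536 and 0.173), and TNFRSF1A not without LYCAT shRNA replicate 2 or 3 or control replicate 2 (0.0809 to 0.126). Without control libraries 1 and 2 neither was called (log2 -0.19, adjusted p = 0.304, for VEGFA and log2 -0.12, adjusted p = 0.655, for TNFRSF1A, both by edgeR), and with DESeq2 TNFRSF1A was not called (adjusted p = 0.106).

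Several acute phase genes of the liver were at or near 0 in these cells. LBP and CRP had 0 counts in every library, and FGA, FGB, FGG and HP had at most 2 counts in any. SERPINA3, named after its values were seen, had 0, 0 and 1 counts with LYCAT shRNA, against 6, 5 and 5 counts with control shRNA, and was too low to test. SERPINA1 and SERPINA3 thus differed in opposite directions, each without overlap between the groups, which was so for 32.8% of all tested genes. SAA1 and SAA2, also named after their values were seen, overlapped between the groups. SAA1 had 18, 16 and 15 counts with LYCAT shRNA, against 19, 11 and 8 counts with control shRNA. It was not called (log2 fold change 0.55, SE 0.352). SAA2 had 6, 3 and 2 counts with LYCAT shRNA, against 1, 2 and 3 counts with control shRNA, and was too low to test.

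Genes listed as known inducers of IL11, IL6 or LIF were called in 1 direction, in a list drawn with earlier results of these data known. Of 15 listed genes 11 were tested, of which 5 rose, 0 fell and 6 were not called, with a median log2 fold change of 0.31. Among all tested genes 9.81% were called higher and 9.26% lower, and the median was -0.01. No inducer was lower at an unadjusted p under 0.05 or with DESeq2 or limma-voom, and DESeq2 called 3 higher. FOSL1, a subunit of AP-1, rose to 50.4, 50 and 48.1 CPM with LYCAT shRNA, against 15.9, 15.8 and 15.5 CPM with control shRNA (log2 1.65, edgeR adjusted p = 3.86e-19). JUN, which pairs with FOSL1 in AP-1, rose to 73.8, 56.1 and 58.1 CPM with LYCAT shRNA, against 44.2, 41.1 and 41.4 CPM with control shRNA (log2 0.58, SE 0.101, edgeR adjusted p = 5.72e-06). Of the other AP-1 genes tested here, JUNB fell, as given with the STAT3 targets, and FOS, FOSL2 and JUND, named after their values were seen, were not called (log2 fold change 0.12, -0.08 and 0.27). CEBPB, also listed with the STAT3 targets and not with the inducers, fell as well (log2 fold change -0.23).

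Of the cytokine inducers, IL1A, an alarm cytokine, rose to 35.5, 30.6 and 42.7 CPM with LYCAT shRNA, against 17.1, 18.8 and 17 CPM with control shRNA (log2 1.05, SE 0.134, edgeR adjusted p = 1.72e-09). IL1B had 25, 11 and 22 counts with LYCAT shRNA, against 0, 3 and 9 counts in control libraries 1 to 3, so the size of its change is imprecise (log2 2.40, SE 0.472, edgeR adjusted p = 0.000105). The log2 fold change of IL1B was 1.81 without control replicate 1 and 3.82 without control replicate 3. Without control libraries 1 and 2, IL1B had a log2 fold change of 1.10 and was not called (edgeR adjusted p = 0.194), nor was it with DESeq2 (adjusted p = 0.136). RELA, an NF-kB subunit, rose to 60.9 ± 6.90 CPM with LYCAT shRNA, against 49.3 ± 4.64 CPM with control shRNA (log2 0.31, edgeR adjusted p = 0.016), but was not called without LYCAT shRNA replicate 1 or control replicate 3 (0.236 and 0.106) or with DESeq2 (0.0995). TNF, named after its values were seen, had 0 counts with LYCAT shRNA and 2 counts in all with control shRNA.

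**Figure D4:**
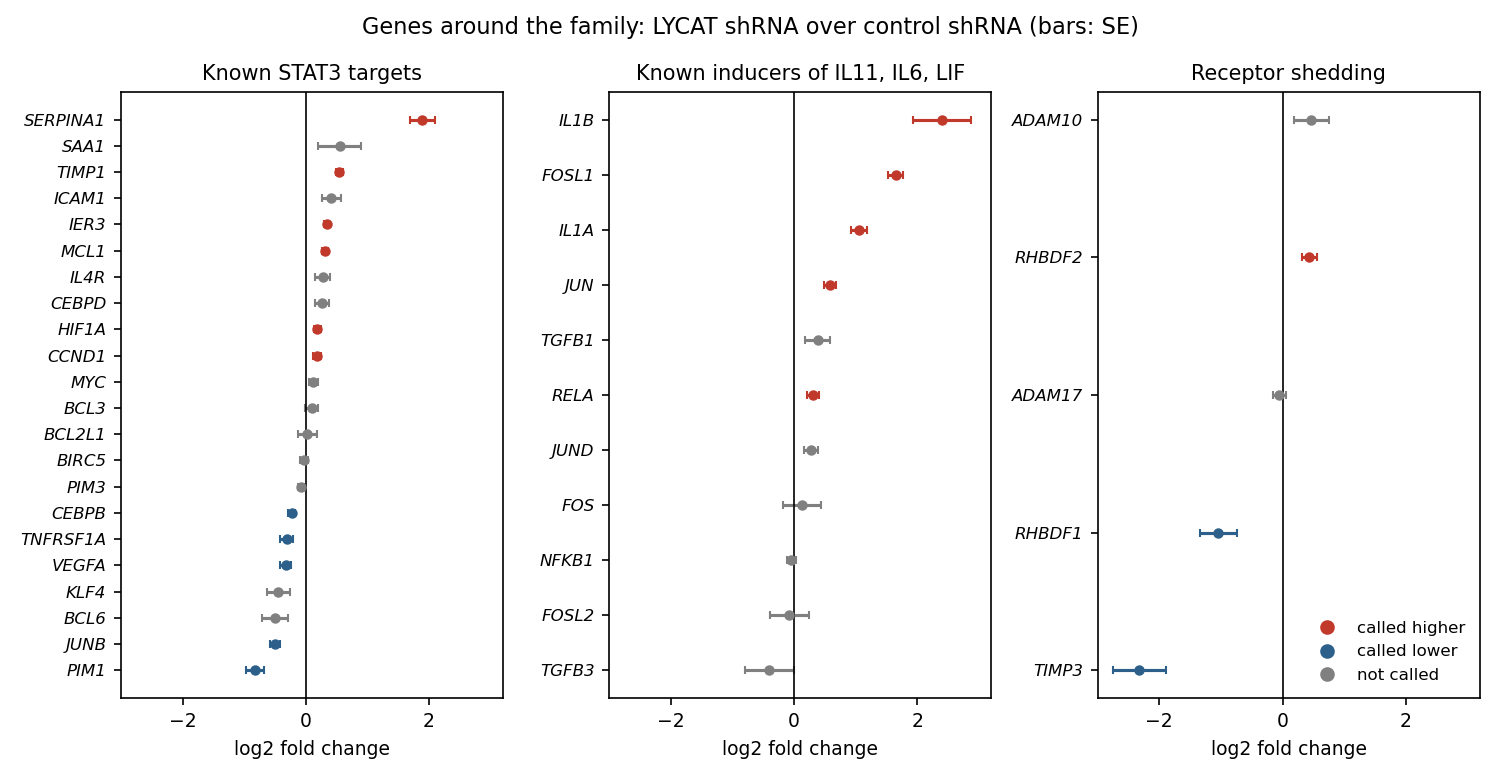
Log2 fold change of LYCAT shRNA over control shRNA, with bars for the SE, for tested genes of 3 lists: STAT3 targets, inducers of IL11, IL6 or LIF, and shedding genes. STAT3 targets are called on both sides of 0, from PIM1 at -0.82 to SERPINA1 at 1.89, whereas all 5 called genes of the inducer list lie above 0. JUNB and CEBPB, both called lower, are drawn with the STAT3 targets.

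Genes with a profile most like that of IL11 were ranked by the root mean square distance between log2 CPM profiles over the 6 libraries, each centred on its own mean, among 9780 other genes. FHOD3, a formin, was nearest at a distance of 0.203, followed by NT5E, an adenosine-producing enzyme, at 0.232 and HDHD1, a phosphatase gene, at 0.242. WNT7B, a Wnt ligand, and CDKN1A, the gene of the p21 protein that halts the cell cycle, followed at 0.273 and 0.274. The likeness is mostly the difference between the groups, which these genes share with IL11: HDHD1 was at 21.7, 22.3 and 23.8 CPM with LYCAT shRNA, against 5.14, 6.08 and 3.94 CPM with control shRNA. FHOD3, WNT7B, HDHD1 and CDKN1A, like IL11, were highest among the controls in library 2, whereas NT5E was highest in control library 3. The ranking used these same libraries, so a shared order among them is partly set by the selection. For CDKN1A the differences were also small, with 49.5, 50.5 and 47.8 CPM in control libraries 1 to 3. Those of WNT7B and FHOD3 were larger relative to their level but rested on few counts. WNT7B had 5, 8 and 4 counts in these libraries, and FHOD3 had 5, 10 and 6.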

How the data were processed

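RNA of 6 libraries of H2122 cells was sequenced, and the authors deposited 1 table of raw counts per gene symbol. The builds hg19 and mm10 and the tools featureCounts 1.5.1, Bowtie2, BWA 0.7.15 and bcl2fastq 2.17 are listed per the submitters' processing notes. Their roles and any strand setting are not given in the sources used here. Column names of the LYCAT shRNA libraries appear to misspell LYCAT, and columns were assigned by name.

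Genes were filtered with filterByExpr by group, scaled with TMM (factors 0.993 to 1.01) and fitted with edgeR 4.0.16 (R 4.3.3) by the quasi-likelihood test with robust=TRUE and group as the only term. The 11097 tested genes held 99.77% of the counts, and p-values were adjusted over all of them by the Benjamini-Hochberg method. SE is the size of the log2 fold change divided by the square root of F. DESeq2 1.42.0 and limma-voom (limma 3.58.1) were alternatives. The edgeR fit was tested on simulated data, where 9.66% of calls were false, more than the adjusted p threshold allows. Calls with an adjusted p near the threshold are thus less certain than it states. The fit recovered 68% of simulated 1.5-fold changes and 91% of 2-fold changes, so genes not called may still differ by 1.5-fold. Exon lengths (GENCODE v29 basic) matched 90.2% of tested genes by symbol. Motifs were searched with Python 3.11.15.

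The members and lists were chosen with earlier results of these data known. Named were all members, LCLAT1, every called gene of a pathway list or its 2 most abundant genes, and the 5 genes nearest to IL11 with a mean of at least 5 CPM, leaving out unnamed loci and noncoding RNAs. Other genes are said to be named after their values were seen. Some genes that this rule names are not reported here.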

Additional observations from a re-analysis of the deposited data

How the results depend on the processing

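IL11 was called higher in all 14 alternatives (log2 2.25 to 2.63), and LCLAT1 was called lower in all 14. The 9 tested members gave 126 alternative values, of which 119 stayed on the same side of the threshold. Those that did not were the 6 of IL6R, which lost its call, and 1 of SOCS3. Among the 23 called list and marker genes, 44 of 320 values lost the call and 0 reversed it. With 1 library left out, members called higher numbered 1 to 2 and members called lower 0 to 1. With DESeq2 1193 genes were called (635 higher, 558 lower), with 1 member higher and 7 pathway list genes higher, against 12 by edgeR. Leaving out control libraries 1 and 2, chosen after seeing the data, gave 1129 genes (573 higher, 556 lower), with 1 member higher and 2 pathway list genes lower, against 7. That fit has fewer samples. The cause of the DESeq2 difference was not tested. Library totals without scaling factors called 966 genes higher and 1127 lower, against 1089 and 1028 with TMM. The replicate numbers are shared by the groups, but same-numbered libraries did not deviate together (correlation -0.0645 to 0.00509). With a replicate block 2046 genes were called and the members called did not change in number. Genes near 3 counts, IL6 among them, were limited by depth.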
